A study of Homo sapiens with 8 samples.

Results

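The aryl hydrocarbon receptor genes and their targets were described here in SW480 and SW620 colorectal adenocarcinoma cells with and without caffeine. The set held the receptor AHR, its partner ARNT, the repressors AHRR and TIPARP, the cytochrome P450 enzymes CYP1A1 and CYP1B1, and 3 further enzymes, ALDH3A1, NAT1 and NQO1. These 9 genes were taken by symbol from the 62649 Ensembl genes counted in each library. All 9 were found, had reads in all 8 libraries and passed the filter on low counts. SW480 was derived from a primary colon tumour and SW620 from a lymph node metastasis of the same patient. Both lines carried an mCherry fusion of the immunoproteasome subunit PSMB8, per the labels, in the controls as well as under caffeine. Poly-A RNA was sequenced in 8 libraries, 2 for each line without caffeine (control) and 2 for each line with it. For SW620 cultures GEO's descriptions give caffeine at 30 to 500 µM over 72 hours and at 125 µM over 28 days, so that a short and a long exposure are both possible. They do not state the caffeine dose or exposure time of the sequenced libraries, nor whether the fusion lines were clones.

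AHR is a ligand-activated transcription factor that waits in the cytoplasm in a complex with HSP90 and other chaperones. After a planar aromatic compound, a dietary indole or a tryptophan metabolite binds, it enters the nucleus, pairs with ARNT and binds the dioxin response element. CYP1A1, CYP1B1, AHRR and TIPARP are its best known targets, and AHRR and TIPARP in turn repress the receptor. ALDH3A1 and NQO1 belong to the same induced battery of detoxifying enzymes, and NQO1 is also a target of NRF2, the regulator of the antioxidant response. Caffeine is demethylated mainly by CYP1A2, a close relative of CYP1A1, in liver, and its products are acetylated by NAT2, the relative of NAT1. In the gut epithelium AHR is known for its responses to diet and microbial products.

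The core of the dioxin response element is GCGTG, and its matches in the windows before the members' RefSeq start sites are shown because the set is defined by this element's receptor. RefSeq promoter windows (GRCh38.p14, from 250 bases before to 50 after a start) were found for 6 of the 9 members, AHR, ARNT, AHRR, TIPARP, CYP1A1 and NQO1, with 9 windows in all. Each stretch below is read 5′ to 3′ on the strand that holds the match, with the match in capitals. Positions give the leftmost base of the match on the gene's strand, with the first base of the RefSeq transcript at 1.
CYP1A1, chr15:74725569-74725597, minus strand, position -57: ccagggaaggagGCGTGgccacacgtaca
AHRR first window, chr5:321672-321700, plus strand, position -30: ggcgggcggctcGCGTGccggggtggggc
AHRR second window, chr5:322360-322379, plus strand, position -247: ggcGCGTGacaggcaggggc
AHRR second window, chr5:322556-322584, plus strand, position -42: gcagaagggtggGCGTGtgcgcgcgttct
TIPARP first window, chr3:156674370-156674398, minus strand, position -208: tcccgcgaggggGCGTGtcctttctcgcg
TIPARP first window, chr3:156674436-156674464, minus strand, position -142: ccccctgcgcgcGCGTGcgcgttcgttcg

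AHR had a match at position 38 and NQO1 had one at position 2, both after the RefSeq start. GENCODE 29 has longer first exons for several members, and the printed stretches of CYP1A1, of TIPARP and of AHRR at position -42 overlap an annotated exon of their gene there. ARNT and the other 2 TIPARP windows held no GCGTG. The longer form TNGCGTG was found in the first AHRR window at position -32 and in NQO1 at position 2. GCGTG lies within TNGCGTG, and it also overlaps the element bound by the hypoxia-inducible factors. The letters are common: on either strand GCGTG occurred in 36.5% of 35116 windows of this length and TNGCGTG in 5.51%. The core of the antioxidant response element, TGACNNNGC, was in 13.3% of windows. Among the members that core was found only in ARNT, at position -183, and not in the window of NQO1. A match describes the letters of a window and was not tested for binding.

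The libraries held 15760259 to 23269315 reads assigned to genes. A gene with 0 counts may still have had up to 3, which equalled 0.129 to 0.190 CPM, the count scaled to the size of its library. SW480 caffeine replicate 2 stood apart in its mitochondrial reads, with 1.63% against 4.38 to 6.16% in the other 7. The epithelial markers summed to 4311 and 5593 CPM in SW480 controls and 6074 and 6307 CPM in SW480 caffeine libraries. In SW620 they summed to 10050 to 10100 CPM in controls and 11540 to 12620 CPM in caffeine libraries. The sum was thus higher with caffeine in both lines, but single markers went either way. EPCAM had 694.8 and 704.4 CPM in SW620 controls and 632.2 and 572.0 CPM in SW620 caffeine libraries. KRT8, KRT18 and EPCAM were among the detected markers, CDX1 was at 0 counts everywhere and CDH1 reached at most 15 counts in any SW480 library. With caffeine CDH1 (log2 0.97 ± 0.13) and KRT20 (1.97 ± 0.39) were higher in SW620, and lower were CDX2 (-0.65 ± 0.12), CDH17 (-0.998 ± 0.15) and LGR5 (-1.27 ± 0.13), each with an edgeR adjusted p of at most 0.00304 and kept without any 1 library. Leukocyte markers summed to 1.90 to 4.43 CPM in all libraries, and fibroblast markers to 5.91 to 7.49 CPM in SW480 and 37.7 to 48.5 CPM in SW620. Most of the SW620 sum was LUM (29.01 to 33.3 CPM, and 0 in SW480), COL3A1 was at 0, and COL1A1 rose with caffeine in SW620 from 6.32 and 5.76 CPM to 14.6 and 15.1 CPM (log2 1.30 ± 0.19, adjusted p = 0.000193). The part of these markers in the members' responses was not tested.

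AHR lies on chromosome 7 (16916359-17346152, plus strand), ARNT on chromosome 1 (150809705-150876768, minus), AHRR on chromosome 5 (304176-438291, plus) and TIPARP on chromosome 3 (156673235-156706770, plus), in GRCh38 with GENCODE 29. CYP1A1 lies on chromosome 15 (74719542-74725610, minus) and CYP1B1 on chromosome 2 (38066973-38109902, minus). ALDH3A1 lies on chromosome 17 (19737984-19748943, minus), NAT1 on chromosome 8 (18170477-18223689, plus) and NQO1 on chromosome 16 (69706996-69726951, minus). Values are sums over all exons of a gene. AHR shares 29.4% of its exon bases with AC019117.2 on the same strand, a gene at 0 counts in all libraries. AHRR shares 3.18% with PDCD6 and has a read-through gene, PDCD6-AHRR, with 6 counts over the 8 libraries. On the opposite strand, CYP1B1 shares 11.3% with CYP1B1-AS1 (13 counts in all) and NQO1 shares 17.7% with AC092115.2 (0 counts). The library kit keeps strand, but the strand setting of the counting is not given in the sources used here. Between 9.45 and 10.4% of the reads on genes were left uncounted because they lay on more than 1 gene, so the levels of AHR and AHRR are uncertain.

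Per kilobase of exon, the members' levels spanned almost 3 orders of magnitude. In SW480 controls NQO1 stood highest at 80.1 ± 11.3 CPM per kb (SD, n = 2) and TIPARP followed at 18.5 ± 2.22 CPM per kb. ARNT (4.73 ± 0.552 CPM per kb) and ALDH3A1 (4.19 ± 0.804 CPM per kb) came next, and their libraries overlapped. NAT1 (2.55 ± 0.346), AHR (2.13 ± 0.0180) and CYP1A1 (1.69 ± 0.0547) followed in CPM per kb without overlap between neighbours. AHRR at 0.159 ± 0.0314 and CYP1B1 at 0.0937 ± 0.00459 CPM per kb were lowest. The receptor thus stood below both its partner ARNT and its repressor TIPARP, which held in all 4 groups. Reads on the exon bases that AHR shares with AC019117.2 may be uncounted, while its length includes those bases. The place of AHR among its neighbours may therefore be too low. In SW620 controls the order began in the same way, with NQO1 at 103.2 ± 2.21 and TIPARP at 17.6 ± 0.872 CPM per kb. ARNT (3.45 ± 0.138) and ALDH3A1 (2.78 ± 0.0645) followed, and then AHR (2.25 ± 0.0417) and NAT1 (2.14 ± 0.232), which overlapped. CYP1A1 at 0.344 ± 0.116 CPM per kb stood beside AHRR (0.255 ± 0.0538) and CYP1B1 (0.213 ± 0.0636) there, and each overlapped its neighbour. Under caffeine the only exchanges of rank were ALDH3A1 above ARNT in SW480 (5.56 ± 0.301 against 4.82 ± 0.205 CPM per kb), and in SW620 AHR above ALDH3A1, NAT1 above ALDH3A1 with overlap, and AHRR above CYP1A1 with overlap.

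**Figure D1:**
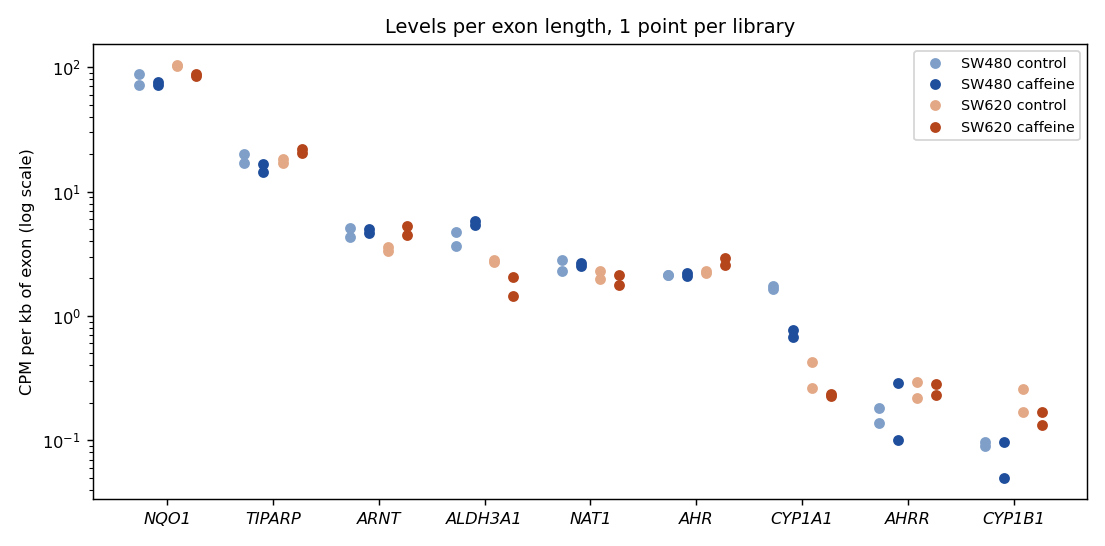
Level of each member in CPM per kb of exon on a log axis, with 1 point per library and colours for the 4 groups. NQO1 stood highest at 80.1 and 103.2 CPM per kb in the SW480 and SW620 controls, and CYP1A1 moved from 1.69 CPM per kb in SW480 controls to 0.230 in SW620 caffeine libraries.

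Among the 9 members the untreated lines differed most in CYP1A1, which hydroxylates polycyclic aromatic hydrocarbons. It had 5.68 and 5.95 CPM in the SW480 controls (94 and 102 counts) and 1.47 and 0.901 CPM in the SW620 controls (29 and 18 counts). Every SW480 control library was above every SW620 one. The log2 fold change of SW620 against SW480 was -2.29 ± 0.27 (SE), a level 4.90-fold lower (95% interval -2.86 to -1.72 log2), with an edgeR adjusted p of 1.12e-06. Without any 1 library it lay between -2.68 and -1.98, with edgeR adjusted p-values of at most 7.02e-05.

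CYP1B1, which also activates polycyclic hydrocarbons and hydroxylates oestrogens, went the other way. It had 0.544 and 0.583 CPM in SW480 controls and 1.01 and 1.55 CPM in SW620 controls, from 9, 10, 20 and 31 counts. The SW620 libraries were above the SW480 ones, and the log2 fold change was 1.18 ± 0.44 (edgeR adjusted p = 0.0268). That call was lost without SW480 control replicate 1 (log2 1.13), SW480 control replicate 2 (1.20) or SW620 control replicate 2 (0.83). It was also lost in DESeq2's Wald test with all libraries (adjusted p = 0.108).

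Of the other members, ARNT and ALDH3A1 were lower in SW620 controls than in SW480 controls, by -0.45 ± 0.14 and -0.59 ± 0.18 on the log2 scale (edgeR adjusted p = 0.00991 and 0.00769). NQO1 was higher by 0.37 ± 0.12 (edgeR adjusted p = 0.0138). AHR, AHRR, TIPARP and NAT1 did not pass the threshold of 0.05, with log2 fold changes of 0.08, 0.68, -0.07 and -0.25. In all, 5 of 9 members differed, 2 higher and 3 lower in SW620, where 65.6% of all 17671 tested genes passed the same test (33.0% higher and 32.6% lower). The control libraries of the lines did not overlap in 8 of 9 members, against 83.4% of all tested genes. The calls of ARNT, ALDH3A1 and NQO1 each depended on single control libraries. ARNT was lost without SW480 control replicate 1 (0.0816) or SW620 control replicate 2 (0.0892), ALDH3A1 without SW480 control replicate 2 (0.0867) or SW620 control replicate 2 (0.0516), and NQO1 without SW480 control replicate 1 (0.120), SW620 control replicate 1 (0.0630) or SW620 control replicate 2 (0.0986).

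**Figure D2:**
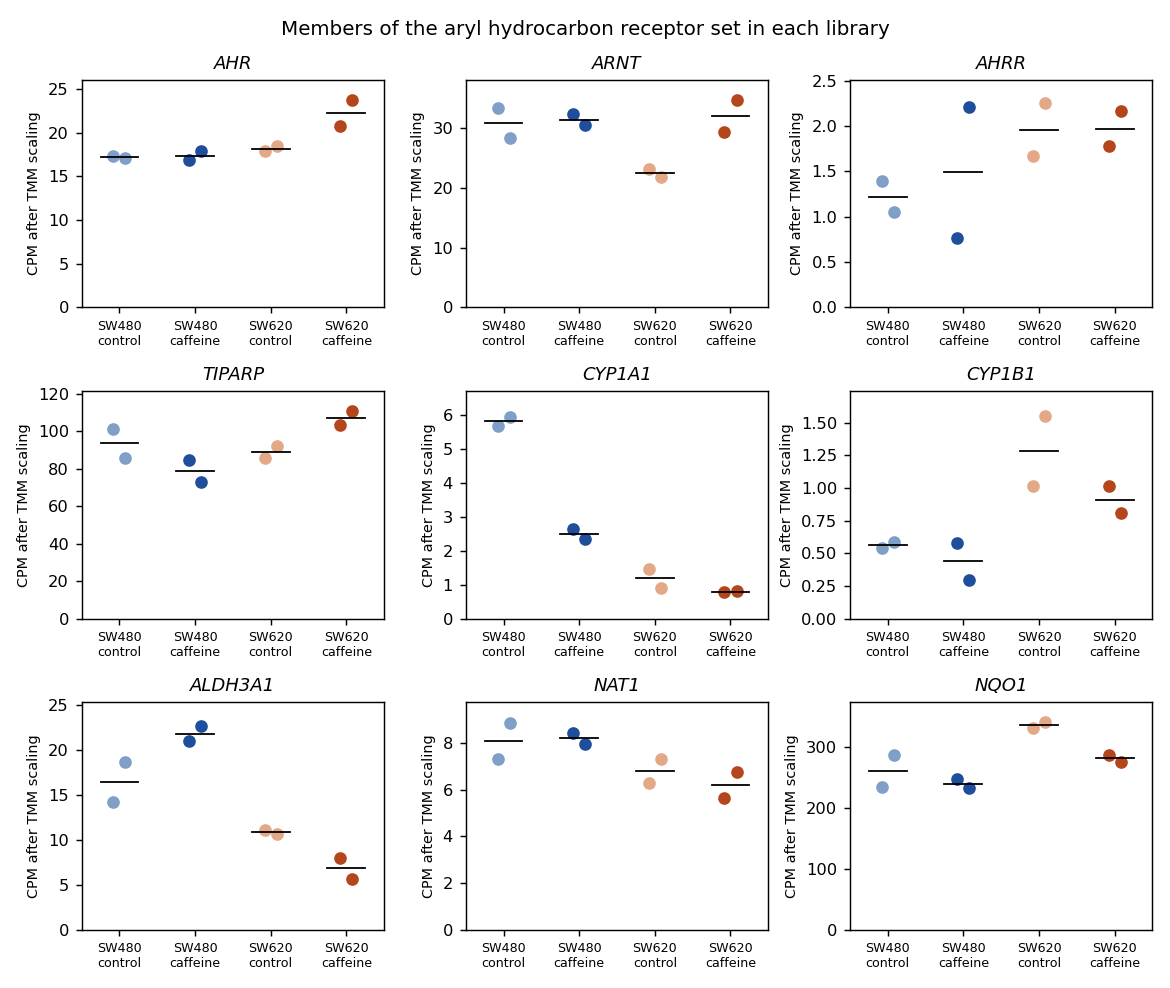
CPM after TMM scaling of the 9 members in each of the 8 libraries, with 1 point per library and a line at the group mean (n = 2), on axes that start at 0. CYP1A1 stands at 5.68 and 5.95 CPM in SW480 controls and at or below 2.64 CPM in the other 6 libraries, and the ALDH3A1 caffeine libraries lie above the controls in SW480, where the change did not pass, and below them in SW620.

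Under caffeine CYP1A1 fell in SW480. The 2 caffeine libraries had 2.64 and 2.34 CPM (41 and 55 counts), against 5.68 and 5.95 CPM in the controls. The groups did not overlap, and the means were 2.49 ± 0.210 and 5.82 ± 0.188 CPM (SD, n = 2). The log2 fold change was -1.23 ± 0.24 (SE), or 2.35-fold lower, with a 95% interval of -1.75 to -0.72 and an edgeR adjusted p of 0.0125. In bulk libraries such as these, fewer cells expressing a gene and less of its RNA per cell cannot be told apart. The call was lost without SW480 caffeine replicate 2, in a fit with 1 SW480 caffeine library left, where the change was -1.14. SW480 caffeine replicate 2 is also the library with few mitochondrial reads. With the mitochondrial genes left out of all libraries the change was -1.23 (edgeR adjusted p = 0.0122). That library stayed in this fit, so its part in the change was not tested by it. The same SW480 control libraries entered the comparison of the untreated lines, so the 2 results for CYP1A1 are not independent.

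In SW620 CYP1A1 started from a lower level. It had 1.47 and 0.901 CPM in controls and 0.773 and 0.804 CPM with caffeine, from 13 and 16 counts in the latter. Both caffeine libraries were below both controls, but the log2 fold change of -0.58 ± 0.36 did not pass (edgeR adjusted p = 0.317, 95% interval -1.34 to 0.18). It was -0.19 without SW620 control replicate 1 and -0.89 without SW620 control replicate 2. The responses of the lines differed by 0.65 ± 0.44 log2 (SW620 minus SW480), with an interval of -0.28 to 1.59 and an adjusted p of 0.408, and by 1.04 and 0.34 without the same control libraries. CYP1B1 did not pass in either line. It had 0.579 and 0.298 CPM with caffeine in SW480 (log2 -0.44 ± 0.54, adjusted p = 0.703) and 1.01 and 0.804 CPM in SW620 (log2 -0.50 ± 0.40, adjusted p = 0.447). Its 95% interval ran from -1.57 to 0.70 in SW480 and from -1.35 to 0.34 in SW620, so that a change of either sign was within counting and replicate error.

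The receptor itself did not pass the test in either line. AHR had 17.4 and 17.1 CPM in SW480 controls and 16.9 and 17.9 CPM with caffeine, and these overlapped. Its log2 fold change of 0.01 ± 0.14 had a 95% interval of -0.28 to 0.31 (edgeR adjusted p = 0.982). In SW620 AHR had 17.9 and 18.4 CPM in controls and 20.8 and 23.8 CPM with caffeine. The caffeine libraries were the higher ones, yet the log2 fold change of 0.29 ± 0.14 failed the correction, with an unadjusted p of 0.0481 and an edgeR adjusted p of 0.175.

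ARNT, the partner that AHR shares with the hypoxia-inducible factors, rose in SW620. It had 23.1 and 21.9 CPM in controls and 29.4 and 34.6 CPM with caffeine. The groups did not overlap, and the log2 fold change was 0.51 ± 0.14, or 1.42-fold (95% interval 0.21 to 0.81, edgeR adjusted p = 0.0229). With caffeine the SW620 mean of 32.0 ± 3.73 CPM stood near the 30.8 ± 3.60 CPM of the SW480 controls. The same SW620 control libraries entered the comparison of the untreated lines, so the rise and that difference are not independent. In SW480 caffeine libraries ARNT had 32.3 and 30.4 CPM, within the range of the controls (33.4 and 28.3 CPM). The difference between the lines' responses, 0.48 ± 0.20 log2, did not pass (adjusted p = 0.156). The SW620 call was lost without SW620 control replicate 1 (0.133), SW620 control replicate 2 (0.213) or SW620 caffeine replicate 2 (0.224).

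TIPARP and AHRR, the feedback repressors, gave no call. TIPARP, an enzyme that adds ADP-ribose to AHR, had 101.5 and 85.7 CPM in SW480 controls and 84.6 and 73.2 CPM with caffeine. In SW620 it had 85.9 and 92.1 CPM in controls and 103.6 and 110.8 CPM with caffeine. The libraries did not overlap in either line, with the caffeine libraries lower in SW480 and higher in SW620. The log2 fold changes were -0.25 ± 0.13 (edgeR adjusted p = 0.313) and 0.27 ± 0.13 (0.185), and their difference was 0.52 ± 0.18 with a 95% interval of 0.13 to 0.90 and an adjusted p of 0.102. Without SW480 control replicate 2 that difference passed, at an adjusted p of 0.0208, as did the one for ARNT at 0.0499.

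AHRR, which competes with AHR for ARNT, had 1.39 and 1.05 CPM in SW480 controls and 0.771 and 2.21 CPM with caffeine, so that the 2 caffeine libraries lay on either side of the controls. In SW620 it had 1.67 and 2.25 CPM in controls and 1.78 and 2.16 CPM with caffeine, inside the range of the controls. The log2 fold changes were 0.38 ± 0.42 in SW480 and 0.02 ± 0.37 in SW620 (edgeR adjusted p = 0.662 and 0.993). From 12 to 52 counts lay behind each of these values.

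ALDH3A1, which oxidises aldehydes from lipid peroxidation, responded differently in the lines. It had 11.1 and 10.7 CPM in SW620 controls and 8.03 and 5.68 CPM with caffeine. It fell there by 0.68 on the log2 scale, with a standard error of 0.19 (1.60-fold lower, 95% interval -1.08 to -0.27, edgeR adjusted p = 0.0253). In SW480 it had 14.2 and 18.7 CPM in controls and 20.96 and 22.6 CPM with caffeine. The caffeine libraries were above the controls, but the log2 fold change of 0.41 ± 0.17 failed the correction (unadjusted p = 0.0296, adjusted p = 0.198). The same control libraries entered the comparison of the untreated lines, so the results for ALDH3A1 are not independent.

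The difference of the ALDH3A1 responses did pass, at -1.08 ± 0.26 log2 (SW620 minus SW480, 95% interval -1.63 to -0.54, edgeR adjusted p = 0.0174). It was lost without SW480 caffeine replicate 2 (0.0705), SW620 control replicate 1 (0.0761), SW620 control replicate 2 (0.0622) or SW620 caffeine replicate 2 (0.106). The fall in SW620 was lost without SW620 control replicate 1 (0.146), SW620 control replicate 2 (0.115) or SW620 caffeine replicate 2, where the change was -0.44 with an adjusted p of 0.283.

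NAT1 and NQO1 gave no call under caffeine. NAT1, which acetylates arylamines, had 7.31 and 8.86 CPM in SW480 controls and 8.42 and 7.95 CPM with caffeine. In SW620 it had 6.27 and 7.31 CPM in controls and 5.65 and 6.74 CPM with caffeine, so its groups overlapped in both lines. The log2 fold changes were 0.01 ± 0.18 and -0.13 ± 0.19 (edgeR adjusted p = 0.986 and 0.711).

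NQO1, which reduces quinones, had 234.6 and 286.5 CPM in SW480 controls and 247.0 and 232.3 CPM with caffeine. In SW620 it had 330.8 and 341.0 CPM in controls and 287.6 and 275.2 CPM with caffeine, with both caffeine libraries the lower ones. The log2 fold changes were -0.12 ± 0.12 and -0.26 ± 0.12 (edgeR adjusted p = 0.623 and 0.180). When SW620 was fitted alone, with its own estimate of the spread, NQO1 (adjusted p = 0.0326) and TIPARP (0.0310) passed there too.

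Counted over the set, caffeine changed 1 of 9 members in SW480, CYP1A1, where 3.60% of all tested genes passed and 1.93% fell. In SW620 it changed 2 of 9, ARNT higher and ALDH3A1 lower, where 14.4% of all tested genes passed (8.10% higher and 6.25% lower). The difference between the lines' responses passed for 1 of 9, ALDH3A1, against 6.71% of tested genes (4.24% with the more positive response in SW620 and 2.47% with the less positive one). Control and caffeine libraries did not overlap for 3 of 9 members in SW480 (43.0% of tested genes) and for 7 of 9 in SW620 (62.0%). The median log2 fold change of the members was 0.01 in SW480 and -0.13 in SW620, beside 0.00 and -0.01 over all tested genes. The targets CYP1A1 and CYP1B1 had negative values in both lines, of which only that of CYP1A1 in SW480 passed. CYP1B1 in SW480 was at 0.037 without SW480 caffeine replicate 2. Of the feedback genes, AHRR had positive values in both lines (0.38 in SW480 and 0.02 in SW620). TIPARP, the best measured of them, had values of opposite sign, and neither feedback gene passed in either line.

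**Figure D3:**
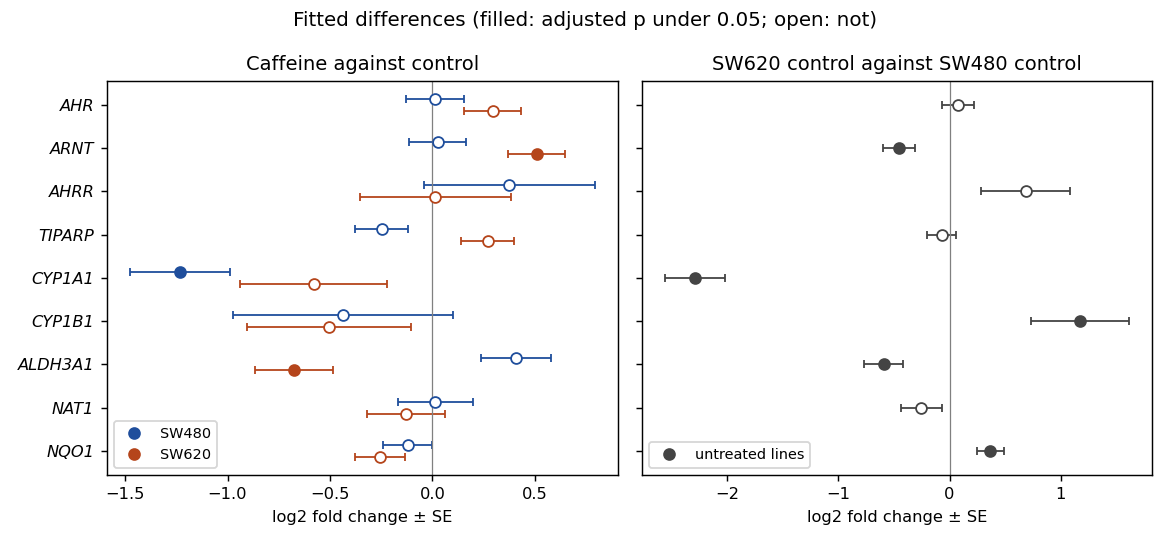
Fitted log2 fold changes with standard errors for caffeine against control in each line (left) and for SW620 against SW480 controls (right), where filled points passed an edgeR adjusted p of 0.05. CYP1A1 stands at -1.23 for SW480 caffeine and at -2.29 between the lines, and ALDH3A1 lies on opposite sides of 0 in the lines.

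Around the receptor, 16 chaperones and co-regulators were tested. None passed in SW480 (list median -0.09), whether by edgeR with or without adjustment, by DESeq2 or by limma-voom. By edgeR adjusted p, 3.60% of all tested genes passed there. In SW620 2 rose and 1 fell (median 0.21), a share of calls near the 14.4% of all tested genes, and 13 of 16 had positive values, against 48.0% of all tested genes. KLF6, a zinc finger factor that can bind DNA together with AHR, had 111.5 and 121.2 CPM in SW620 controls and 228.6 and 256.0 CPM with caffeine, a log2 fold change of 1.06 ± 0.12 (edgeR adjusted p = 2.05e-05). In SW480 KLF6 was at -0.04 ± 0.12, and the lines differed by 1.10 ± 0.17 (adjusted p = 0.000900). Both KLF6 calls were kept without any 1 library. RELB, an NF-kB subunit that also pairs with AHR, rose by 0.52 ± 0.15 (0.0292) and the corepressor NRIP1 fell by 0.77 (0.0120). The RELB call was lost without any of the 4 SW620 libraries (0.0806 to 0.323), and that of NRIP1 without SW620 control replicate 1, SW620 control replicate 2 or SW620 caffeine replicate 1 (0.0595 to 0.146).

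Of 13 other factors of the bHLH-PAS family, to which AHR and ARNT belong, 10 were tested. In SW480 2 of 10 fell and none rose, with a median of -0.38, where 1.93% of all tested genes fell. EPAS1, the oxygen-regulated HIF-2α, had 966.1 and 787.8 CPM in SW480 controls and 588.2 and 522.3 CPM with caffeine. The groups did not overlap, and the log2 fold change was -0.66 ± 0.13 (edgeR adjusted p = 0.0122). In SW620, EPAS1 was at 1.15 to 2.36 CPM in all 4 libraries, with 0.81 ± 0.26 and an adjusted p of 0.0509, and the lines' responses differed by 1.47 ± 0.29 (0.00676). NPAS1 fell in SW480 by 0.86 (0.0324). In SW620 the clock factor BMAL1 rose by 0.68 ± 0.17 (0.0119). SIM2 was also called lower there (0.0387), from 17 counts in the controls to 3 with caffeine, too few for a fold. The EPAS1 call in SW480 was lost without SW480 control replicate 1 or SW480 caffeine replicate 2 (0.0652 and 0.170), and its difference without SW620 control replicate 2 or SW620 caffeine replicate 2 (0.0525 to 0.0713). NPAS1 was lost without any of the 4 SW480 libraries (0.0530 to 0.116), SIM2 without any of the 4 SW620 libraries (0.0855 to 0.226), and BMAL1 without either SW620 control or SW620 caffeine replicate 2 (0.0595 to 0.159).

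The 19 further genes known as inducible through AHR were only partly expressed, and 9 were tested. GSTA1 and PTGS2 had 0 counts in all libraries. In SW480 0 passed by edgeR, DESeq2 or limma-voom, where edgeR called 3.60% of all tested genes. There 3 had an unadjusted edgeR p under 0.05. The median was -0.01 when EREG, at 0 counts in the SW480 caffeine libraries, is left without a fold. In SW620 2 rose and 2 fell of 9, beside 14.4% of all tested genes called there (median 0.17 without UGT1A1, which was at 0 in 1 group). EREG, an EGF receptor ligand, had 2.73 and 4.15 CPM in SW620 controls and 34.1 and 33.4 CPM with caffeine, and rose by 3.29 ± 0.20 log2 (edgeR adjusted p = 7.40e-08). AREG, a related ligand, rose from 8.54 and 8.56 CPM to 47.4 and 38.3 CPM, by 2.32 ± 0.18 log2 (3.70e-07). These 2 genes are induced through several other pathways as well, and both calls were kept without any 1 library. SLC7A5, an amino acid transporter, fell in SW620 by 0.58 (0.00827) and the hormone STC2 by 0.53 (0.00534). In SW480 both had positive values of 0.34 and 0.36 that did not pass, and the lines' responses differed by -0.92 ± 0.19 for SLC7A5 (0.00778) and -0.89 ± 0.16 for STC2 (0.00368). In SW620 the calls of SLC7A5 and STC2 were lost without SW620 control replicate 1, SW620 control replicate 2 or SW620 caffeine replicate 1 (0.0652 to 0.138 and 0.0655 to 0.0839), and the difference for SLC7A5 without SW620 control replicate 1 or SW620 caffeine replicate 1 (0.0538 to 0.0738).

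**Figure D4:**
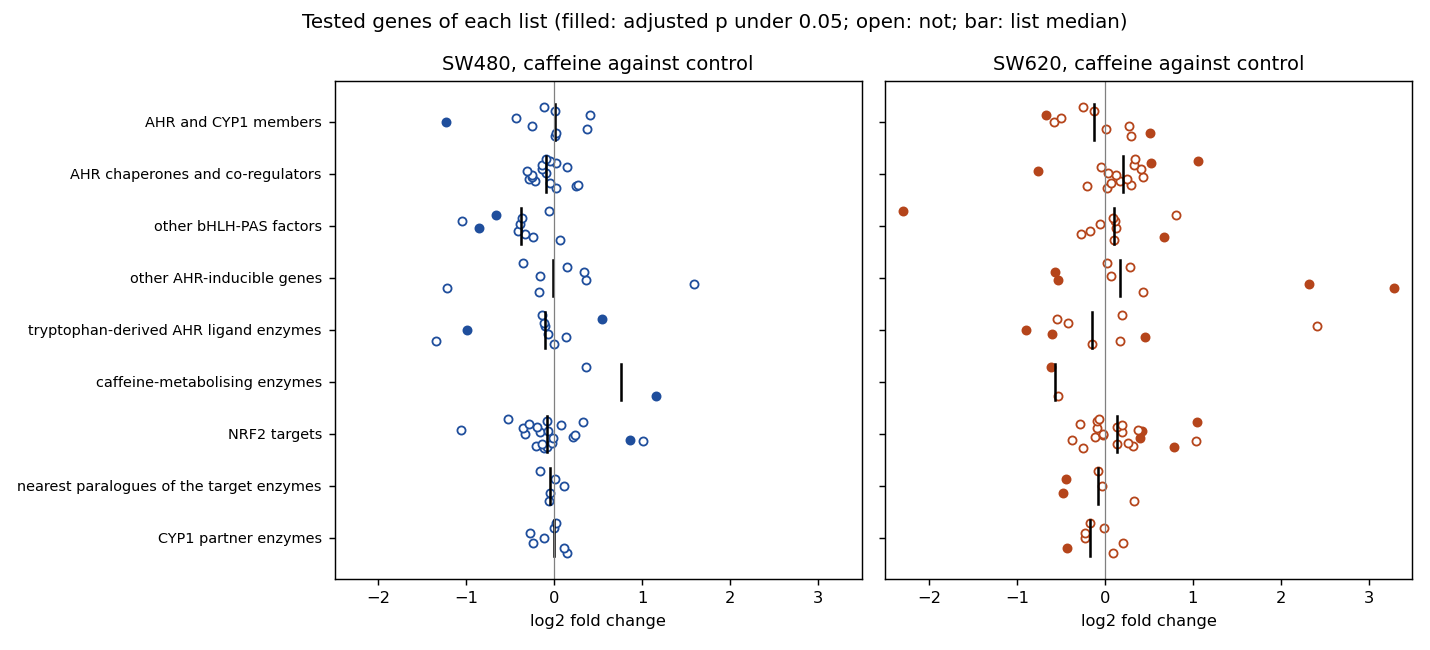
Log2 fold changes for caffeine against control in SW480 (left) and SW620 (right), with 1 point per tested gene, filled where it passed an edgeR adjusted p of 0.05, and a bar at each list's median. Genes with 0 counts in 1 group are not drawn, and the points of EREG (3.29) and AREG (2.32) lie far to the right in SW620.

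The NRF2 targets, which include NQO1, did not share one direction in SW480. There 1 of 21 tested genes rose, SLC7A11, and none fell (median -0.08), where 1.67% of all tested genes rose and 1.93% fell. SLC7A11, the cystine transporter, had 6.95 and 7.70 CPM in SW480 controls and 12.7 and 13.8 CPM with caffeine (log2 0.86 ± 0.17, edgeR adjusted p = 0.0141). In SW620 it was at 232.5 and 235.6 CPM in controls, with a response of -0.38 that did not pass (0.0800), and the lines differed by -1.23 ± 0.22 (0.00310).

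In SW620 4 of 21 NRF2 targets rose and none fell (median 0.13), where 8.10% of all tested genes rose. OSGIN1, an oxidative stress-induced growth inhibitor, went from 5.41 and 6.61 CPM to 13.4 and 11.5 CPM (log2 1.05 ± 0.20, edgeR adjusted p = 0.00217). HMOX1, which degrades haem, rose by 0.78 ± 0.26 (0.0497) and GSR, which regenerates glutathione, by 0.42 (0.0387). NQO1, the member of the set in this list, was at -0.26 in the same libraries. The call of GSR was lost without any of the 4 SW620 libraries (0.0787 to 0.319). HMOX1 was lost without either SW480 caffeine library, either SW620 control or SW620 caffeine replicate 1 (0.0566 to 0.385), and OSGIN1 without SW620 control replicate 1 (0.0503). SLC7A11 in SW480 was lost without SW480 control replicate 1 or SW480 caffeine replicate 2 (0.0732 and 0.170).

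Among the nearest paralogues of the target enzymes, 5 of 8 were tested, and in SW480 0 passed by edgeR with or without adjustment, DESeq2 or limma-voom. By edgeR adjusted p, 3.60% of all tested genes passed in SW480 and 14.4% in SW620, where 6.25% fell. In SW620 ALDH3A2, the fatty aldehyde dehydrogenase next to ALDH3A1 in its family, fell from 93.1 and 97.3 CPM to 68.4 and 67.8 CPM (log2 -0.48 ± 0.12, edgeR adjusted p = 0.0118). PARP12, a relative of TIPARP, fell by 0.45 (0.0350), whereas TIPARP had a positive value there. ALDH3B2 was at 0 counts in all libraries. Of 7 enzymes that work with CYP1 proteins or on their products, 0 passed in SW480 by the same 4 criteria, and in SW620 only CYB5A, an electron donor to P450 enzymes, did, with a fall of 0.43 (0.0332). These 3 SW620 calls were each lost without any of the 4 SW620 libraries (0.0708 to 0.151, 0.116 to 0.246 and 0.110 to 0.232).

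Finally, the genes whose profile over the 8 libraries was nearest to a member's were taken by the root mean square difference of centred log2 CPM. For AHR these were NAA35 (0.0575), LPIN2 (0.0586) and MRTFA (0.0594), out of 12461 genes with a median difference of 0.398. TIPARP was nearest to EXOC1 (0.0479), DNAJB9 (0.0487) and TMED2 (0.0495). RACK1 (0.0364) and UBE2N (0.0575) were among the nearest to NQO1. CYP1B1, with few counts, came no nearer than 0.153 to any gene (RPS15A, then RPL32 at 0.159 and LYPLAL1 at 0.164). None of the nearest 3 of these 4 members was another member. CYP1B1 and AHRR were below the level set for a candidate, so neither could have been named. With 3 genes taken out of 12461, this says little about whether the members vary together.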

How the data were processed

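The authors deposited raw read counts per Ensembl gene, 1 table per library. Per the submitters' processing notes, the tools were Trim Galore, STAR (2.7.3a) and featureCounts (2.0.5), with hg38 as the build. Per the labels' protocols, the libraries were directional poly-A libraries of at least 2 biological replicates, with single-end reads of 75 bases and RNA integrity numbers of 8 or above. The annotation release, the strand setting and the meaning of a replicate number are not given in the sources used here, so p-values measure only the spread between these libraries.

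The 12 assignment totals of each library, which name no gene, were left out, which included the reads on more than 1 gene. Of 62649 gene IDs, 62625 matched a symbol and 58225 matched GENCODE 29. Counts were tested with edgeR 4.0.16 in R 4.3.3 (filterByExpr, TMM scaling, robust quasi-likelihood F test, 4 group means over all 8 libraries). Benjamini-Hochberg adjustment ran over 17671 genes, with a threshold of 0.05, and the biological coefficient of variation was 10.5%. Every adjusted p in the text is from this fit over all tested genes unless another tool or fit is named. Levels are CPM after TMM scaling, and per kb they were divided by the union of exons. A SE is the log2 fold change divided by the square root of F, and intervals are at 95%. The profile likeness used log2 CPM with a prior count of 2 and genes averaging at least 1 on that scale. Intervals from counts cover only counting error and replicate spread. That spread was estimated over all 8 libraries, 2 per group, and drew on other genes as well. The fit was tested on simulated data.

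The members and lists were chosen with earlier results of these data known. Named were all 9 members, up to 4 called genes per further list and comparison by adjusted p, list genes at 0 counts in all libraries and any measured caffeine-metabolising enzyme. Of the called genes between the untreated lines, only members are named. The results of 2 other genes that the rule named are not given in the text. The marker lists were for colorectal epithelium, fibroblasts, leukocytes, endothelium and hepatocytes. The alternatives were DESeq2 size factors, no filter, DESeq2's own Wald test (1.42.0), voom in limma 3.58.1, a replicate block, no mitochondrial genes, each line fitted alone, and each library left out in turn. Leaving out 1 library leaves 1 in its group, so a call lost there may reflect the smaller group.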

Additional observations from a re-analysis of the deposited data

Results flagged for a closer look

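The caffeine responses of ALDH3A1 in the lines differed in the test of the difference itself, by -1.08 log2 (SW620 minus SW480, edgeR adjusted p = 0.0174). ALDH3A1 had 14.2 and 18.7 CPM in SW480 controls, 20.96 and 22.6 CPM in SW480 caffeine libraries, 11.1 and 10.7 CPM in SW620 controls and 8.03 and 5.68 CPM in SW620 caffeine libraries. SW480 caffeine replicate 2, the library with 1.63% mitochondrial reads, is among those that enter the difference. The part of that library in the result was not tested beyond leaving it out, which gave an adjusted p of 0.0705.

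Of 78 tested non-member genes in the pathway lists, the responses of 8 also differed between the lines, beside 6.71% of all tested genes (SW620 minus SW480, log2, edgeR adjusted p in parentheses). The more positive response was in SW620 for EPAS1 at 1.47 (0.00676), KLF6 at 1.10 (0.000900) and BMAL1 at 0.92 (0.0176). It was in SW480 for CYP2D6 at -1.70 (0.0156), SLC7A11 at -1.23 (0.00310), MAOA at -1.09 (0.0200), SLC7A5 at -0.92 (0.00778) and STC2 at -0.89 (0.00368). The BMAL1 difference was lost without SW480 caffeine replicate 2, SW620 control replicate 1, SW620 control replicate 2 or SW620 caffeine replicate 2 (0.0593 to 0.128).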

How the results depend on the processing

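Without any 1 library, the number of genes called ran from 50 to 1367 in SW480, from 787 to 3225 in SW620 and from 421 to 2156 for the difference of responses, beside 636, 2537 and 1185 with all 8. Members called ran from 0 to 1, from 0 to 2 and from 0 to 3 in these comparisons and from 1 to 5 between the untreated lines. With no filter 1073 genes passed in SW480, and SW620 fitted alone gave 4545 genes and 4 members. With the replicate block 590, 2249, 1087 and 11397 genes passed in SW480, SW620, the difference and the untreated lines, and no member's call changed. Of the other named genes it ended the SW620 calls of GSR, CYB5A, HMOX1 and QPRT (adjusted p from 0.0535 to 0.0609). Same-numbered libraries did not deviate together (correlations of -0.19 to 0.03), and nothing in the labels says that the numbers pair them.

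Some log2 fold changes of members that did not pass turned sign. AHRR (0.38) and CYP1B1 (-0.44) in SW480 and the AHRR difference (-0.36) did so from values away from 0, the others from values near 0. In SW480, AHR was at -0.0062 with DESeq2 size factors and -0.0064 in DESeq2's Wald test, and NAT1 at -0.0058 and -0.0049. Leaving out 1 library gave SW480 ranges of -0.028 to 0.051 for AHR, -0.10 to 0.15 for ARNT, -0.65 to 0.86 for AHRR, -0.91 to 0.037 for CYP1B1, -0.12 to 0.14 for NAT1 and -0.26 to 0.014 for NQO1. It gave -0.18 to 0.25 for AHRR in SW620 and -0.21 to 0.055 for TIPARP between the lines. For the difference it gave -0.84 to 0.67 for AHRR, -0.54 to 0.40 for CYP1B1 (0.017 in limma-voom) and -0.26 to 0.0021 for NQO1. DESeq2's Wald test and limma-voom ended the calls of CYP2D6 in SW480 (adjusted p = 0.0834 and 0.0724), HMOX1 in SW620 (0.0690 and 0.0811) and QPRT in SW620 (0.0548 and 0.127). Alone, DESeq2's Wald test ended those of SIM2 (0.0773) and CYB5A (0.0504) in SW620, and limma-voom the MAOA difference (0.0560). With no filter QPRT, SIM2, PARP12 and CYB5A in SW620 missed the threshold (0.0501 to 0.0747). Fitting a line alone ended the calls of MAOA in SW480 (0.0507) and QPRT and SIM2 in SW620 (0.0693 and 0.0514), and leaving out mitochondrial genes that of HMOX1 (0.0511). The causes were not tested. Values of CYP1B1, AHRR and, in SW620, CYP1A1 rest on at most 52 counts per library, which limits their precision.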

Other observations

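Enzymes that make or consume tryptophan-derived ligands of AHR were unevenly expressed. Of 17 such genes 9 were tested, and IDO1, IDO2 and KYNU had 0 counts in all libraries, so IDO1, the interferon-inducible first enzyme of the kynurenine route, was not detected at this depth. QPRT, which leads kynurenine products to NAD, fell in SW480 from 96.4 and 106.0 CPM to 51.0 and 51.0 CPM (log2 -0.99 ± 0.13, edgeR adjusted p = 0.000771), and the call was kept without any 1 library. In SW620 QPRT was at 0.855 to 1.92 CPM, and its fall of 0.90 log2 (0.0464) was lost without either SW480 caffeine library or any of the 4 SW620 libraries (0.0510 to 0.394). MAOA, which oxidises serotonin and tryptamine, rose in SW480 from 79.7 and 89.2 CPM to 121.9 and 123.5 CPM (log2 0.54 ± 0.12, 0.0232). In SW620 MAOA was at 1.37 to 2.12 CPM with a value of -0.55 (0.136), and the lines differed by -1.09 ± 0.26 (0.0200). The MAOA call in SW480 was lost without either SW620 control, the first SW480 control or the second SW480 caffeine library (0.0580 to 0.160), and its difference without any of the 4 SW620 libraries (0.0713 to 0.110). In SW620 the transaminase KYAT3 rose by 0.46 ± 0.13 (0.0284) and AADAT fell by 0.60 (0.0150), and both calls were lost without any of the 4 SW620 libraries (0.0853 to 0.302 and 0.0631 to 0.125). In all, 1 of 9 rose and 1 fell in SW480 (median -0.10), beside 3.60% of all tested genes called there. In SW620 1 of 9 rose and 2 fell (median -0.15), beside 14.4% of all tested genes called.

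Of 9 enzymes that metabolise caffeine in liver, only CYP2D6 and CYP2E1 had enough reads to be tested. CYP1A2, the main one, had 3 and 2 counts in the SW480 controls and 0 in the other 6 libraries, where up to 3 counts each remain possible. CYP2D6 rose in SW480 from 1.21 and 1.28 CPM to 2.31 and 3.19 CPM (log2 1.16 ± 0.30, edgeR adjusted p = 0.0411), and the lines differed by -1.70 ± 0.39 (0.0156). The SW480 call was lost without any 1 control library of either line or SW480 caffeine replicate 2 (0.0623 to 0.392), and the difference without SW480 caffeine replicate 2, SW620 control replicate 2 or SW620 caffeine replicate 2 (0.0681 to 0.0923). CYP2E1 had 20.01 and 20.9 CPM in SW620 controls and 13.7 and 13.1 CPM with caffeine, a fall of 0.61 log2 (0.0303) that was lost without any of the 4 SW620 libraries (0.106 to 0.201). CYP2E1 is also 1 of 5 hepatocyte markers, whose summed level was 1.27 to 2.89 CPM in SW480, 21.5 to 22.6 CPM in SW620 controls and 13.6 to 14.3 CPM in SW620 caffeine libraries. That sum was almost wholly CYP2E1 itself. Of the other 4, ALB fell in SW620 from 1.36 and 1.55 CPM to 0.238 and 0.302 CPM (log2 -2.39 ± 0.49, edgeR adjusted p = 0.00343, kept without any 1 library), and none of the rest exceeded 0.357 CPM in any library.

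Endothelial markers summed to 1.41 to 2.22 CPM in SW480, 9.66 to 9.75 CPM in SW620 controls and 15.5 to 16.1 CPM in SW620 caffeine libraries. Their part in the SW620 results was not tested.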
